A study of Mus musculus with 24 samples.

Results

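The 8 genes described here are members of the interleukin-1 and IL-33 receptor family and its ligands: Il33, Il1a, Il1b and Il18, which encode cytokines, Il1r1 and Il1rl1, which encode receptors, Il1rap, which encodes the co-receptor shared by both receptors, and Il1rn, which encodes the IL-1 receptor antagonist. They were taken by symbol from the 37310 genes of the expression tables, and all 8 were found. The set was chosen by values of these same libraries, namely the higher level of Il1rl1 with epigallocatechin gallate (EGCG) on day 8 and the high level of Il1rn in brown fat cells on day 4. For Il1rl1 in any comparison that holds a day 8 group, and for Il1rn in any comparison that holds a BAT day 4 group, the values are therefore a description with no test.

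The libraries measured RNA of cells of the stromal vascular fraction (SVF), the mixed cells of fat that hold the adipocyte precursors, taken from inguinal white adipose tissue (WAT) or interscapular brown adipose tissue (BAT) of C57BL/6 mice aged 6 weeks. The cultured cells of all groups received insulin, dexamethasone, IBMX and serum for the first 4 days and insulin with T3 for the next 4 days. EGCG, the main catechin of green tea, was added in the treated groups, and its solvent DMSO in the control groups. The dose of EGCG is not given in the sources used here. WAT or BAT, control or EGCG, and day 4 or day 8 gave 8 groups of 3 libraries each, WAT day 4 control, WAT day 4 EGCG, WAT day 8 control, WAT day 8 EGCG and the same 4 for BAT. The labels do not say that the replicates of a group were separate cultures, so p-values measure the spread between these libraries only. In such bulk samples, fewer cells of a type and less RNA per cell cannot be told apart.

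Interleukin-1α and interleukin-1β signal through the receptor encoded by Il1r1, and IL-33, a nuclear alarmin released by stromal and barrier cells, signals through ST2, the product of Il1rl1. Both receptors need the co-receptor encoded by Il1rap, and both pass the signal through MyD88 and IRAK kinases to NF-kB. The antagonist encoded by Il1rn occupies the IL-1 receptor without signalling, and IL-18 uses a receptor pair of its own. In adipose tissue, IL-33 of stromal cells is known to maintain ST2-bearing regulatory T cells and group 2 innate lymphoid cells, and IL-1β is known to restrain adipocyte differentiation.

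Levels are FPKM, that is, read counts scaled for gene length and library size. Replicates 1 and 2 share a table, with 39452696 to 52893848 reads assigned to genes per library, and replicate 3 has a table of its own, with 16392420 to 41675648. Tests used replicates 1 and 2 of all groups (limma on log2(FPKM + 1), called at an adjusted p under 0.05 over 14095 tested genes), and replicate 3 gives a value and a direction. In WAT day 8 EGCG replicate 3, 5 genes took 61.0% of the reads, against 3.64% to 10.5% in the other libraries. Values of that library are given after the reads of those 5 genes were left out of its total, which multiplied them by 2.56. Control cells held the adipocyte marker list (6 genes, summed FPKM of 1950 to 2560 in WAT and 4860 to 6290 in BAT on day 4, and 4280 to 4900 in WAT and 8050 to 8650 in BAT on day 8), and with EGCG these sums were 374 to 411, 1150 to 1160, 126 to 145 and 284 to 294. The 4 markers of white fat summed to 14.8 to 34.9 in WAT and 3.39 to 10.0 in BAT, the 6 brown markers to 14.2 to 35.7 and 31.7 to 59.7, and the 6 precursor markers to 202 to 1230 over all libraries. With EGCG the precursor sum was higher in WAT on day 4 (412 to 447 against 275 to 304). It was lower on day 8 in WAT (562 to 654 against 1080 to 1230) and in BAT (202 to 212 against 351 to 369). In BAT on day 4 the ranges overlapped. Keratin and other epithelial markers summed to 17.9 to 172 in WAT libraries and to at most 0.153 in BAT libraries, which limits every comparison of the depots below, and their part in the results was not tested. Over all tested genes, the median log2 change with EGCG was 0.09 on day 4 and 0.17 on day 8 in WAT, and 0.03 and 0.17 in BAT. Rescaling by median ratios brought it to between -0.02 and 0.02.

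Of the 8 members, 6 passed the filter of an FPKM of 1 in 2 of the 16 libraries tested, and Il1a and Il1b did not. Il1r1 was the most abundant, with 14.9 to 194 FPKM as deposited over the 24 libraries. Il1rl1 ranged most widely, from 0.0287 to 105 FPKM. Il33 lay between 3.03 and 57.2, Il1rn between 0.834 and 80.9, Il1rap between 6.51 and 24.7 and Il18 between 0.342 and 2.48 FPKM.

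**Figure D1:**
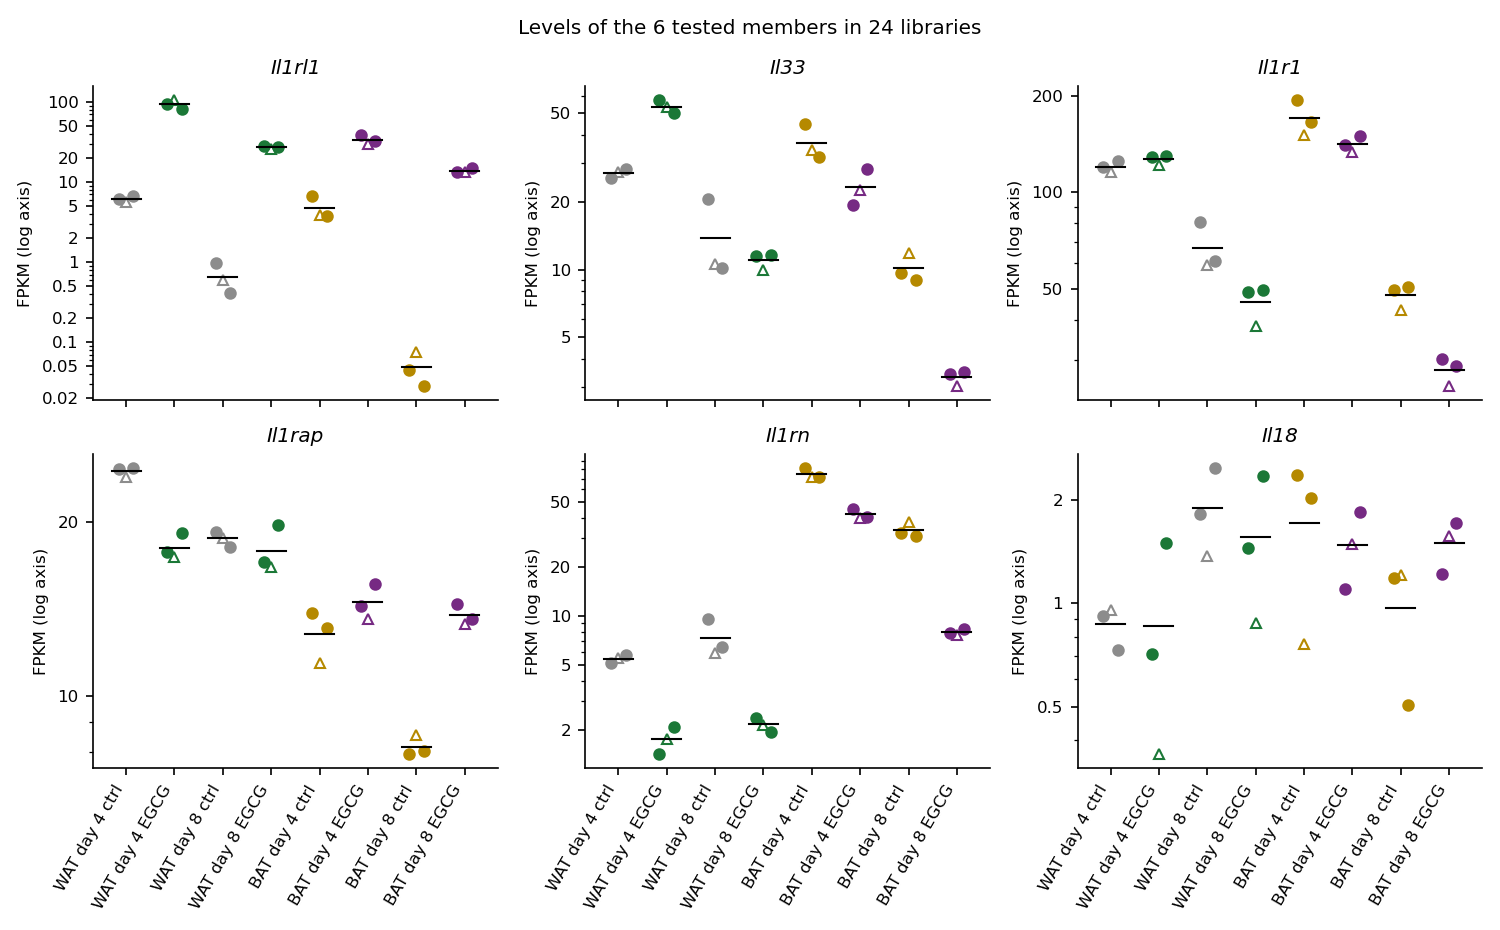
Levels of the 6 tested members (FPKM, log axis) in each of the 8 groups. Filled circles are replicates 1 and 2, open triangles are replicate 3 (rescaled in WAT day 8 EGCG), and lines are the mean of the 3 libraries. Il1rl1 lay above its control in all 4 EGCG groups, and Il1rn was highest in BAT day 4 control.

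Both genes of interleukin-1 itself were close to absent. For Il1a, 89 reads were found in all 24 libraries together, with at most 12 in a library (BAT day 8 EGCG replicate 2) and at most 0.115 FPKM. For Il1b, 8 reads were found in all, with at most 2 in any library, which is under the floor of 3 reads in each of the 24. This floor covers counting error only. Il1a overlaps the annotated gene Gm14023 and Il1b overlaps Gm14047, and strand use in counting is not given in the sources used here. Neither passed the filter, so no comparison between groups was made for them, whereas their receptor gene Il1r1 stood at 14.9 FPKM or more in the same libraries.

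With EGCG, 4 of the 6 tested members were called in WAT on day 4, Il1rl1 and Il33 higher and Il1rn and Il1rap lower. Over all tested genes 53.7% were called there, 34.4% higher and 19.3% lower. In WAT on day 8, 2 of the 5 members with a test were called, Il1rn and Il1r1, both lower, where 63.6% of all genes were called, 44.7% higher and 18.9% lower. In BAT on day 4, 2 of 5 were called, Il1rl1 higher and Il1r1 lower, where 48.5% of all genes were called, 27.9% higher and 20.6% lower. In BAT on day 8, 4 of 5 were called, Il1rap higher and Il33, Il1rn and Il1r1 lower, where 72.6% of all genes were called, 46.5% higher and 26.1% lower. These shares of members lie on either side of that background.

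**Figure D2:**
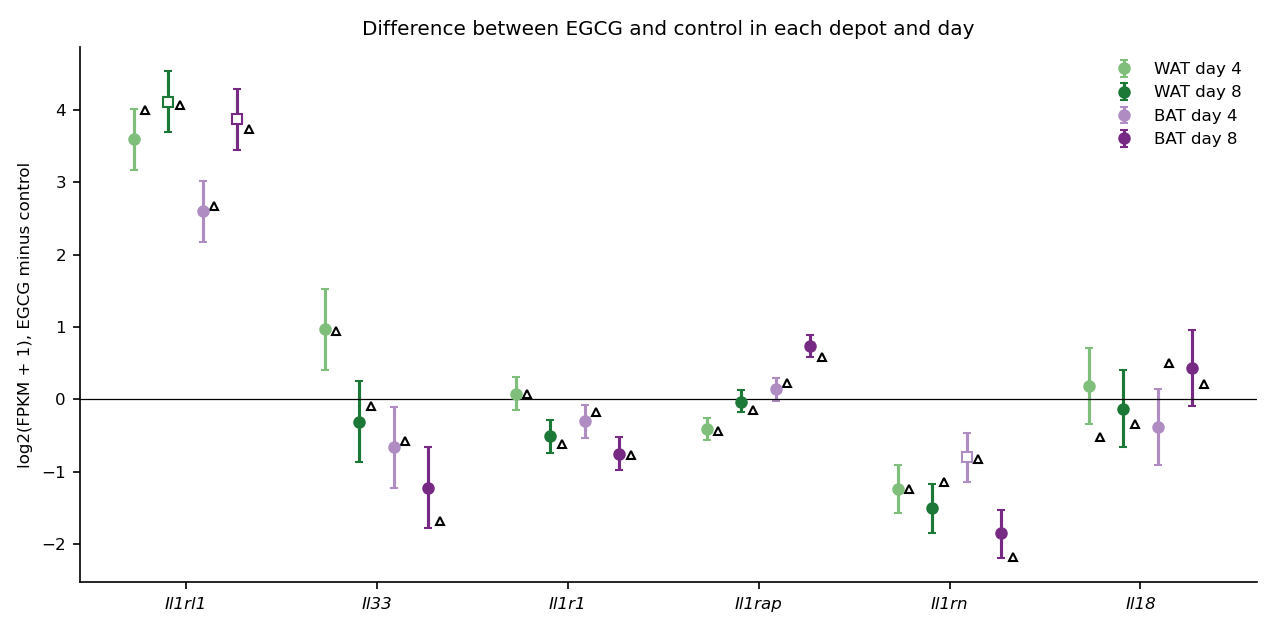
Difference between EGCG and control in log2(FPKM + 1) for 6 members in each depot and day. Points are limma estimates from replicates 1 and 2 with 95% intervals. Open squares are the values given with no test, and open triangles are the difference in replicate 3. Any interval at an open square is a description and not a test, because those comparisons hold the values that chose the gene. Il1rl1 lay between 2.60 and 4.11 and Il1rn between -1.85 and -0.80, while Il33 and Il1rap had different signs in different groups.

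Il33, the alarmin that is the ligand of ST2, rose with EGCG in WAT on day 4 and fell with it in BAT on day 8. In WAT on day 4, its FPKM was 25.8, 28.1 and 27.3 in control replicates 1, 2 and 3 and 57.2, 50.0 and 53.4 with EGCG. The groups did not overlap, and Il33 rose 1.99-fold (log2 change 0.97, SE 0.256, limma, adjusted p = 0.00759). The call was lost without WAT day 4 EGCG replicate 1 (log2 change 0.87, adjusted p = 0.0514). The mesothelial marker list, of a cell type known to hold IL-33, summed to 7.51 to 9.74 FPKM in these controls and 17.5 to 30.7 with EGCG. The epithelial list summed to 33.5 to 75.6 and 48.8 to 172. The mesothelial sum was also higher with EGCG in WAT day 8 (12.3 to 16.4 against 5.45 to 7.7). In BAT it was 2.69 to 3.76 against 0.568 to 1.09 on day 4 and 7.54 to 10.5 against 6.0 to 6.45 on day 8. Il33 was not called higher in any of these other comparisons. Upk3b, one of the 5 mesothelial markers, had under 3 reads in all 24 libraries. Their part in the result was not tested.

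In BAT on day 4, Il33 stood at 44.6, 31.8 and 34.3 FPKM in control cells and at 19.4, 28.3 and 22.8 with EGCG. The 3 values with EGCG all lay below the 3 of the control, yet the change of -0.66 (SE 0.256) missed the threshold (limma, adjusted p = 0.051). It passed under median-ratio scaling (-0.70, adjusted p = 0.0397), quantile normalization (-0.69, adjusted p = 0.0436) and voom (-0.67, adjusted p = 0.0162), without BAT day 4 control replicate 2 (-0.90, adjusted p = 0.0367) and without BAT day 4 EGCG replicate 2 (-0.92, adjusted p = 0.0299). On day 8 in BAT, Il33 was 9.68, 8.97 and 11.9 FPKM in control cells and 3.42, 3.47 and 3.03 with EGCG, and it fell by 1.22 on the log2 scale (SE 0.256, limma, adjusted p = 0.00103). The day 8 levels in WAT were 20.7, 10.2 and 10.6 in control cells and 11.5, 11.6 and 9.94 with EGCG, and these groups overlapped (log2 change -0.31, 95% interval -0.87 to 0.25, adjusted p = 0.312). Control replicate 1 stood apart here, as it did for Il1rn and Il1r1. Without WAT day 8 control replicate 2, the change was -0.78 with an adjusted p of 0.00668. The effect of EGCG on Il33 in BAT minus that in WAT was -1.63 on day 4 (SE 0.362, limma, adjusted p = 0.00656) and -0.90 on day 8 (SE 0.362, adjusted p = 0.0681). Without WAT day 8 control replicate 1 the day 8 difference was -1.38, with an adjusted p of 0.00213.

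Il18, whose product is activated by caspase-1, was low throughout. The highest values were 1.83, 2.48 and 1.38 FPKM in WAT day 8 control, on 64, 70 and 16 reads, and the lowest were 0.711, 1.50 and 0.364 in WAT day 4 EGCG, on 22, 49 and 6 reads. Neighbouring groups overlapped all along the order of the 8 group means. None of the 4 comparisons of EGCG with control was called for Il18 (limma), and the log2 changes lay between -0.38 and 0.43 (SE 0.240). Without BAT day 8 control replicate 1, that of BAT day 8 was 0.71 with an adjusted p of 0.0396.

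Il1rl1 encodes ST2, which is made as a membrane receptor and, from a shorter transcript, as a soluble decoy that binds IL-33 away from cells. The gene lies on chromosome 1 (mm9, 40486415 to 40522260, plus strand) with 5 annotated protein-coding transcripts of 375 to 5302 bases. Gene-level values cannot tell the membrane form from the soluble form. RefSeq gives Il1rl1 a pair of start sites in GRCm38.p6, 10059 bases apart, and the 250 bases before each are printed because the gene had the widest range of the set. Capitals mark the GATA motif AGATAA on either strand, which 9.99% of 32851 RefSeq windows of this length hold, and in the second window also the antioxidant response element TGACNNNGC, which 10.2% hold.
Il1rl1 upstream start site, chr1:40429320-40429569, plus strand: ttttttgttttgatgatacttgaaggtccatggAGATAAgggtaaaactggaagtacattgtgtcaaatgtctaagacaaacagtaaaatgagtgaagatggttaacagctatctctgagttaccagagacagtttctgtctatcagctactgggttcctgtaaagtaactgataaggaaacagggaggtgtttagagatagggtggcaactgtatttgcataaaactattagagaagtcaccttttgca
Il1rl1 downstream start site, chr1:40439379-40439628, plus strand: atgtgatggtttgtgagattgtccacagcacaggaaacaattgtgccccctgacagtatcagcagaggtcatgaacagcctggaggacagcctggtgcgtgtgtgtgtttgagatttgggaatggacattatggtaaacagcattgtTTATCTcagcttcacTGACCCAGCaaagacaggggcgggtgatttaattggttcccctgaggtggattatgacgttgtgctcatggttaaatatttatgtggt
A match is a run of letters and not a measured site. AP-1 (TGANTCA), NF-kB and a half-length glucocorticoid element (AGAACA) were also searched on both strands and have no match in these windows.

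On day 4, Il1rl1 stood at 6.21, 6.60 and 5.64 FPKM in WAT control cells and at 95.1, 81.4 and 105 with EGCG. This 13.8-fold difference in replicates 1 and 2, 18.7-fold in replicate 3, was far wider than the spread between libraries (log2 change 3.59, SE 0.191, limma, adjusted p = 4.56e-08). In BAT on day 4, the control values were 6.62, 3.79 and 3.83 and those with EGCG 38.6, 32.8 and 29.6, a 6.86-fold rise (log2 change 2.60, SE 0.191, adjusted p = 5.73e-07). Both calls held in every alternative tried. The control groups of the depots overlapped (BAT minus WAT -0.29, 95% interval -0.71 to 0.13, adjusted p = 0.214), and without BAT day 4 control replicate 1 that difference was -0.63 with an adjusted p of 0.011. With EGCG, BAT lay below WAT in every library (log2 difference -1.28, SE 0.191, adjusted p = 0.000201).

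The day 4 effect of EGCG on Il1rl1 was smaller in BAT than in WAT (difference -0.99 on the log2 scale, SE 0.270, limma, adjusted p = 0.0186). This call rests on single libraries. It was lost without WAT day 4 control replicate 1 (-0.95, adjusted p = 0.0545), without WAT day 4 EGCG replicate 1 (-0.88, adjusted p = 0.0688), without BAT day 4 control replicate 1 (-0.65, adjusted p = 0.0517) and without BAT day 4 EGCG replicate 2 (-0.87, adjusted p = 0.0672). It was also lost with a pseudocount of 0.1 (-0.96, adjusted p = 0.111) and with no filter on low values (-0.99, adjusted p = 0.0512).

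On day 8, the values that chose the gene, Il1rl1 had 0.963, 0.414 and 0.603 FPKM in WAT control cells and 28.1, 27.3 and 25.9 with EGCG. In BAT it had 0.0446, 0.0287 and 0.0747 FPKM in control cells, on 11, 6 and 7 reads, and 13.5, 14.8 and 13.3 with EGCG, on 3362, 4150 and 1215 reads. No library with EGCG overlapped its control. The ratio of means was 40.3 in WAT and 387 in BAT (178 in replicate 3), whereas on the log2(FPKM + 1) scale the differences were 4.11 and 3.87. The order of the depots on day 8 thus depends on the scale, since the pseudocount of 1 is far above the BAT control level. Il1rl1 was lower on day 8 than on day 4 in each of the 4 series, 9.30-fold in WAT control, 3.18-fold in WAT EGCG, 142-fold in BAT control and 2.52-fold in BAT EGCG. In replicate 3 these ratios were 9.35, 4.07, 51.2 and 2.23. In WAT control the log2 difference between days was -2.39 without WAT day 8 control replicate 1 and -1.91 without replicate 2. Ordered by level, the groups ran WAT day 4 EGCG, BAT day 4 EGCG, WAT day 8 EGCG, BAT day 8 EGCG, WAT day 4 control, BAT day 4 control, WAT day 8 control and BAT day 8 control, and only the 2 day 4 controls overlapped as neighbours.

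Cells known to carry ST2 were looked for with markers. Of the 8 mast cell markers, the IgE receptor genes Fcer1a and Ms4a2 had under 3 reads in all 24 libraries, and the list summed to 0.883 to 3.49 FPKM, most of it Kit at 0.818 to 3.12. Of the 10 lymphoid markers, the T cell receptor genes Cd3d, Cd3e and Cd3g had under 3 reads in all 24 libraries, and the sum of 67.9 to 258 was nearly all Thy1, which fibroblasts also express. Gata3, a regulator of group 2 innate lymphoid cells and of T cells, reached at most 1.73 FPKM, in WAT day 4 EGCG, where Il1rl1 was highest. Ptprc, which encodes CD45 of all leukocytes, was at 0.0361 to 0.857 FPKM in the 24 libraries. The 10 macrophage markers found of 11, none of them under 3 reads in all libraries, summed to 70.0 to 74.8 in WAT day 4 control and 174 to 191 with EGCG, and to 157 to 177 and 349 to 418 in BAT. On day 8 they were lower with EGCG, at 56.2 to 65.4 against 105 to 121 in WAT and 55.8 to 58.9 against 107 to 116 in BAT. The 6 endothelial markers summed to 11.1 to 21.7 in control and 29.0 to 38.8 in EGCG libraries, and were higher with EGCG in each depot and day. The 7 neutrophil markers summed to 0.0573 to 1.88. The part of these cells in the result was not tested.

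Il1r1 encodes the signalling receptor of interleukin-1. On day 4 in WAT it had 120, 125 and 116 FPKM in control cells and 129, 130 and 122 with EGCG, which overlapped (log2 change 0.08, 95% interval -0.15 to 0.31, adjusted p = 0.559). On day 8 in WAT, 81.0, 60.9 and 59.2 FPKM in control cells stood against 48.8, 49.5 and 38.1 with EGCG, and Il1r1 fell by 0.51 (SE 0.105, limma, adjusted p = 0.00115). In BAT the values were 194, 166 and 151 against 141, 150 and 134 on day 4, and 49.6, 50.6 and 42.9 against 30.1, 28.7 and 24.9 on day 8. The groups did not overlap on either day. Il1r1 fell by 0.75 on day 8 (SE 0.105, adjusted p = 4.05e-05) and fell by 0.30 on day 4 (adjusted p = 0.0312). The day 4 call was lost without BAT day 4 control replicate 1 (-0.19, adjusted p = 0.23), without BAT day 4 EGCG replicate 1 (-0.26, adjusted p = 0.151), without BAT day 4 EGCG replicate 2 (-0.35, adjusted p = 0.0583), with no filter (adjusted p = 0.0758), with both tables fitted together (adjusted p = 0.552) and with quantile normalization (-0.24, adjusted p = 0.102). With WAT day 8 EGCG replicate 3 left out or rescaled, the fit of both tables kept the day 4 call. The effect of EGCG on Il1r1 was lower on day 8 than on day 4 in WAT (difference -0.58, SE 0.148, adjusted p = 0.00671) and in BAT (-0.45, SE 0.148, adjusted p = 0.0233). The BAT call was lost when replicate 2 of any of the 4 BAT groups was left out, at adjusted p values of 0.0596 to 0.0963. Between depots the effect was not called on day 4 (-0.38, adjusted p = 0.0762) or day 8 (-0.24, adjusted p = 0.224). It passed on day 4 without BAT day 4 control replicate 2 (-0.49, adjusted p = 0.0463) and on day 8 without WAT day 8 control replicate 1 (-0.44, adjusted p = 0.00479).

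Il1rap, the co-receptor gene, fell in WAT on day 4 and rose in BAT on day 8. In WAT on day 4 it stood at 24.6, 24.7 and 23.9 FPKM in control cells and at 17.7, 19.1 and 17.4 with EGCG (log2 change -0.41, SE 0.0705, limma, adjusted p = 0.000477). In BAT on day 8 it stood at 7.95, 8.02 and 8.55 FPKM in control cells and at 14.4, 13.6 and 13.3 with EGCG (log2 change 0.74, SE 0.0705, adjusted p = 1.47e-06). Neither pair of groups overlapped, and the WAT call was lost with both tables fitted together (-0.42, adjusted p = 0.173). In WAT on day 8, 19.2, 18.1 and 18.7 against 17.0, 19.7 and 16.7 overlapped (-0.03, 95% interval -0.18 to 0.13, adjusted p = 0.744), but rescaling by median ratios gave -0.22 with an adjusted p of 0.0224 and quantile normalization -0.20 with 0.0369. In BAT on day 4, 13.9, 13.1 and 11.4 against 14.3, 15.6 and 13.6 also overlapped (0.14, 95% interval -0.02 to 0.29, adjusted p = 0.136). The effect of EGCG on Il1rap differed between depots by 0.54 on day 4 (SE 0.0996, adjusted p = 0.00225) and by 0.77 on day 8 (SE 0.0996, adjusted p = 0.000118), BAT above WAT. It also differed between days, by 0.38 in WAT (adjusted p = 0.0084) and 0.60 in BAT (adjusted p = 0.000327), day 8 above day 4. The WAT difference between days had an adjusted p of 0.0705 with quantile normalization (0.26). With both tables fitted together, the calls for the depot difference on day 4 (0.58, adjusted p = 0.393) and for the day difference in BAT (0.52, adjusted p = 0.253) were lost, and the day difference in WAT turned sign (-0.07, adjusted p = 0.917). With WAT day 8 EGCG replicate 3 left out or rescaled, both tables kept these calls and signs, and the WAT day 4 call. Il1rap overlaps the annotated gene RP24-345H5.2.

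Il1rn encodes the IL-1 receptor antagonist, which is secreted or kept in the cell according to the first exon used. The gene lies on chromosome 2 (mm9, 24192373 to 24207014, plus strand) with 6 annotated transcripts, 4 of them protein-coding, and gene-level values do not separate them. The 250 bases before the upstream RefSeq start site and before a second one 8431 bases downstream (GRCm38.p6) are printed because the gene sets the depots apart. A further start site lies close to the second, and its window overlaps that one. Capitals mark the AP-1 motif TGANTCA, held by 6.75% of the 32851 windows, and the second window has no match to any of the 5 motifs.
Il1rn upstream start site, chr2:24336610-24336859, plus strand: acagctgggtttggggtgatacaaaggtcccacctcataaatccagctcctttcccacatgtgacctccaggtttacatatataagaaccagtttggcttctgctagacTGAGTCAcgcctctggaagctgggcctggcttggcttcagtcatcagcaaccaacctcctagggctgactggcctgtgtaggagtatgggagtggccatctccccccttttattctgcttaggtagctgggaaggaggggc
Il1rn second start site, chr2:24345041-24345290, plus strand: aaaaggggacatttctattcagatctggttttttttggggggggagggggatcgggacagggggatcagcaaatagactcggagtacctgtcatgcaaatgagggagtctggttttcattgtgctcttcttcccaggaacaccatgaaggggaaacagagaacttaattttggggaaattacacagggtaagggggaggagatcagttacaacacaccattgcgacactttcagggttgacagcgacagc
Of the other members, Il1a has the AP-1 motif, Il18 the glucocorticoid element, and Il1r1 both the glucocorticoid element and NF-kB in 1 of its 2 windows, where 16.1% and 7.25% of all windows hold these.

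Il1rn was highest in BAT on day 4, the values that chose it, at 80.9, 71.2 and 71.8 FPKM in control cells and 45.5, 40.7 and 40.2 with EGCG. In WAT on day 4 it stood at 5.10, 5.78 and 5.50 FPKM in control cells and at 1.42, 2.06 and 1.76 with EGCG, and it fell by 1.24 (SE 0.152, limma, adjusted p = 3.62e-05). The BAT control mean was 14.0 times that of WAT on day 4, and the BAT mean with EGCG 24.8 times. On day 8, Il1rn fell with EGCG in WAT from 9.59, 6.48 and 5.90 to 2.36, 1.94 and 2.14 FPKM (-1.50, SE 0.152, adjusted p = 4.41e-06). In BAT it fell from 32.3, 31.2 and 37.9 to 7.81, 8.31 and 7.63 FPKM (-1.85, SE 0.152, adjusted p = 3.89e-07). No EGCG group overlapped its control, and these 3 calls held in every alternative tried. On day 8 the effect did not differ detectably between depots (BAT minus WAT -0.35, 95% interval -0.82 to 0.12, adjusted p = 0.224), but without WAT day 8 control replicate 1 the difference was -0.60 with an adjusted p of 0.0226. The adipocyte markers were lower with EGCG in the same comparisons, as given above, and their part in the fall of Il1rn was not tested.

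From day 4 to day 8 without EGCG, all 5 members with a test were called in WAT, where 61.0% of all genes were, and all 4 in BAT, where 69.2% were. Il1r1 fell by 0.80 in WAT (SE 0.105, limma, adjusted p = 4.1e-05) and fell by 1.82 in BAT (SE 0.105, adjusted p = 2.53e-08). Il33 fell by 0.84 in WAT (SE 0.256, adjusted p = 0.0137) and fell by 1.91 in BAT (SE 0.256, adjusted p = 3.53e-05). Il1rap fell by 0.38 in WAT (adjusted p = 0.000539) and fell by 0.69 in BAT (adjusted p = 3.46e-06). In WAT control cells Il1rn rose by 0.47 (SE 0.152, adjusted p = 0.0189) and Il18 rose by 0.79 (SE 0.240, adjusted p = 0.0138), while Il18 fell by 0.81 in BAT (SE 0.240, adjusted p = 0.00993).

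Several of these calls between days hung on single libraries of replicates 1 and 2. That of Il33 in WAT was lost without WAT day 8 control replicate 2 (-0.37, adjusted p = 0.153) or WAT day 4 control replicate 2 (-0.78, adjusted p = 0.0675). That of Il1rn was lost without WAT day 8 control replicate 1 (0.22, adjusted p = 0.205) or WAT day 4 control replicate 1 (0.39, adjusted p = 0.108). Il18 in WAT was lost without WAT day 4 control replicate 2 (0.71, adjusted p = 0.0724) or WAT day 8 control replicate 2 (0.64, adjusted p = 0.0892). In BAT, Il18 was lost without BAT day 4 control replicate 1 (-0.74, adjusted p = 0.0572) or BAT day 8 control replicate 2 (-0.54, adjusted p = 0.106), and replicate 3 gave 0.33 there, the other direction.

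With EGCG, 2 of 5 members were called between the days in WAT, where 59.5% of all genes were, and 2 of 4 in BAT, where 58.0% were. They were Il33 and Il1r1 in both depots. Il33 fell by 2.11 in WAT (SE 0.256, limma, adjusted p = 2.32e-05) and fell by 2.46 in BAT (SE 0.256, adjusted p = 6.95e-06). Il1r1 fell by 1.38 in WAT (adjusted p = 5.27e-07) and fell by 2.27 in BAT (adjusted p = 1.12e-08). Il1rap was about level between the days with EGCG, at -0.01 in WAT (95% interval -0.16 to 0.15) and -0.09 in BAT (95% interval -0.24 to 0.07). The effect of EGCG changed between days for 3 of 5 members in WAT, Il33, Il1r1 and Il1rap, where 49.4% of all genes were called, and for 2 of 4 in BAT, Il1r1 and Il1rap, where 55.4% were. For Il33 in WAT that change was -1.28 (SE 0.362, adjusted p = 0.0124). Calls also appeared when 1 library was left out, for Il18 between the days in WAT with EGCG (0.75 without WAT day 4 EGCG replicate 2, adjusted p = 0.0401) and for the change of the Il1rn effect in WAT (-0.51 without WAT day 8 control replicate 2, adjusted p = 0.0364). For the change of the Il18 effect in BAT (0.82, adjusted p = 0.0597) the p was 0.0372 without BAT day 4 EGCG replicate 2 and 0.0244 without BAT day 8 control replicate 1.

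Between the depots, 3 of 5 members were called in control cells on day 4, where 55.8% of all genes were. Il1r1 was 1.47-fold higher in BAT (log2 difference 0.55, SE 0.105, limma, adjusted p = 0.001) and Il1rap 1.83-fold lower (-0.82, SE 0.0705, adjusted p = 3.32e-06). Il18 was called higher (0.81, adjusted p = 0.0136), but its libraries overlapped when replicate 3 was counted, and the call was lost without WAT day 4 control replicate 2 (0.74, adjusted p = 0.0731) or BAT day 4 control replicate 1 (0.73, adjusted p = 0.0725). In control cells on day 8, 4 of 5 were called, where 53.6% of all genes were. Il1rn was 3.95-fold higher in BAT (1.88, SE 0.152, adjusted p = 1.21e-06), while Il1r1 (-0.48, adjusted p = 0.00224), Il1rap (-1.13, adjusted p = 1.59e-07) and Il18 (-0.79, adjusted p = 0.0156) were lower. The Il18 call was lost without WAT day 8 control replicate 2 (-0.64, adjusted p = 0.094) or BAT day 8 control replicate 2 (-0.52, adjusted p = 0.146). The Il1r1 call had an adjusted p of 0.0577 with the libraries of the contrast only. Il1r1 was thus above WAT in BAT on day 4 and below it on day 8, with no overlap of libraries on either day. Il33 was not called on day 8 (-0.60, adjusted p = 0.0693). Its groups overlapped, and replicate 3 gave the other direction (0.14). Without WAT day 8 control replicate 2, which leaves only the high WAT library, the difference was -1.07 with an adjusted p of 0.00119.

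Among EGCG-treated cells, 3 of 5 members differed between depots on day 4, where 48.7% of all genes did, and 4 of 5 on day 8, where 38.4% did. On day 4, Il1rl1, Il33 (-1.16, SE 0.256, limma, adjusted p = 0.003) and Il1rap (-0.28, SE 0.0705, adjusted p = 0.00623) were lower in BAT. The Il1rap call was lost without WAT day 4 EGCG replicate 2 (-0.23, adjusted p = 0.0572) or BAT day 4 EGCG replicate 1 (-0.22, adjusted p = 0.0632). On day 8, Il1rn was 3.75-fold higher in BAT (1.53, adjusted p = 1.79e-05), and Il33 (-1.50, adjusted p = 0.000788), Il1r1 (-0.72, adjusted p = 0.000264) and Il1rap (-0.36, adjusted p = 0.00189) were lower. The effect of EGCG differed between depots for 3 of 5 members on day 4, Il1rl1, Il33 and Il1rap, where 28.1% of all genes were called, and for 1 of 5 on day 8, Il1rap, where 39.2% were.

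The genes next to Il1rl1 and Il1rn belong to the same family. On chromosome 1, Il1r2, Il1r1, Il1rl2, Il1rl1, Il18r1 and Il18rap lie in that order, and Il18r1 starts 136 bases after the end of Il1rl1. Il18r1, a chain of the IL-18 receptor, nevertheless had at most 26 reads in a library and none in the 6 BAT day 8 libraries, and Il18rap, the other chain, had at most 78 reads. Il1r2 encodes a decoy receptor that binds interleukin-1 without signalling. It fell with EGCG in WAT on day 4, from 5.14, 5.30 and 5.25 to 1.54, 1.91 and 1.12 FPKM (log2 change -1.19, SE 0.255, limma, adjusted p = 0.00203). On day 8 in WAT, Il1r2 went from 4.32, 9.99 and 9.30 to 1.38, 2.18 and 1.20 FPKM (-1.47, SE 0.255, adjusted p = 0.00032).

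Il1rl2, the receptor gene of the IL-36 cytokines, was the other abundant receptor of the cluster, at 7.53 to 47.0 FPKM in replicates 1 and 2. Replicate 3 was lower in every group, at 5.31 to 25.9 FPKM. It rose with EGCG in BAT on day 8, from 7.53 and 8.79 to 19.3 and 16.8 FPKM (5.31 to 10.8 in replicate 3, log2 change 1.06, SE 0.102, limma, adjusted p = 1.58e-06). Il1rl2 was also called higher in WAT on day 4 (0.42, adjusted p = 0.00457) and day 8 (0.37, adjusted p = 0.00721) and lower in BAT on day 4 (-0.28, adjusted p = 0.0393). The genes of its ligands, Il1f6, Il1f8 and Il1f9, and of its antagonist, Il1f5, had at most 4 reads in any library.

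**Figure D3:**
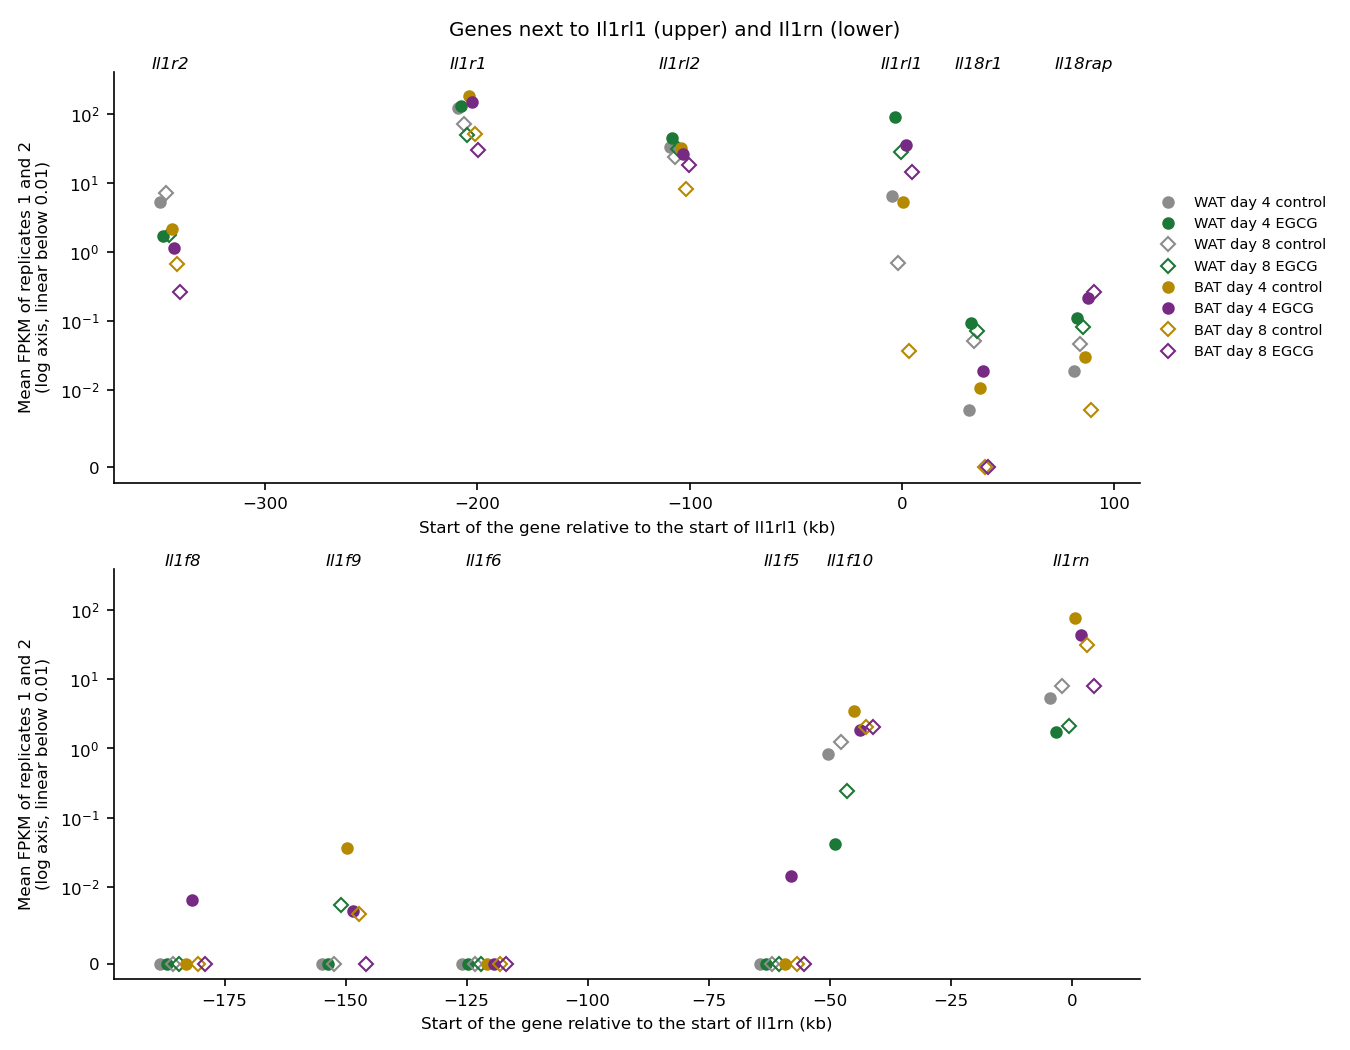
Mean FPKM of replicates 1 and 2 (log axis, linear below 0.01) of the genes beside Il1rl1 on chromosome 1 and beside Il1rn on chromosome 2, placed by distance between gene starts, with the 8 groups set slightly apart. Il18r1 stayed near 0 beside Il1rl1, and Il1f10 was the only other gene of the chromosome 2 cluster above 1 FPKM.

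On chromosome 2, Il1f10, which encodes IL-38, ends 43032 bases before Il1rn. Its FPKM was 3.93, 3.02 and 2.99 in BAT day 4 control, against 0.869, 0.780 and 0.340 in WAT day 4 control on 24, 18 and 3 reads. BAT was higher than WAT on day 4 without EGCG (log2 difference 1.29, SE 0.243, limma, adjusted p = 0.00091) and with it (1.46, SE 0.243, adjusted p = 0.000449). With EGCG, Il1f10 was called lower in WAT on day 4 (-0.81, adjusted p = 0.0147) and day 8 (-0.83, adjusted p = 0.0103), where replicate 3 gave 0.01, and in BAT on day 4 (-0.64, adjusted p = 0.0474). The remaining tested member of the wider family, Il18bp, which encodes a decoy that binds IL-18, was lower with EGCG on day 8 in WAT (-0.81, adjusted p = 1.41e-05) and BAT (-0.82, adjusted p = 7.59e-06).

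Of 13 further family genes, 4 passed the filter, and 1 was higher and 2 lower with EGCG in WAT on day 4. On day 8 WAT had 1 higher and 3 lower. BAT had 0 and 2 on day 4, and 1 and 1 on day 8, namely Il1rl2 and Il18bp. Over all genes the shares called were 53.7% and 63.6% in WAT and 48.5% and 72.6% in BAT. The 2 calls in BAT on day 4 (limma) became 0 with no filter or with no mean-variance trend. They became 1 with a pseudocount of 0.1, with voom, with a replicate block and with both tables fitted together. This count also moved without any 1 of the BAT day 4 libraries of replicates 1 and 2. That of WAT on day 4 moved without WAT day 4 control replicate 1.

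Downstream of the receptors, all 19 signalling genes passed the filter. With EGCG, WAT had 10 higher and 1 lower on day 4 and 14 and 1 on day 8, and BAT had 9 and 2 on day 4 and 10 and 5 on day 8. Over all genes 34.4% were higher and 19.3% lower, then 44.7% and 18.9%, 27.9% and 20.6%, and 46.5% and 26.1%. These counts moved with the scaling. Under median-ratio scaling they were 6 and 4, 3 and 2, 6 and 2, and 6 and 7, and over all genes the share of calls that were higher in WAT on day 8 went from 70.3% to 51.2%. The list's median log2 change was 0.16, 0.21, 0.15 and 0.16, against 0.09, 0.17, 0.03 and 0.17 over all genes. Rela, the p65 subunit of NF-kB, was higher in each of the 4 comparisons, by 0.47 (SE 0.0826, limma, adjusted p = 0.000551) in WAT day 4 up to 0.80 (SE 0.0826, adjusted p = 2.93e-06) in BAT day 8. Irak2, a kinase recruited by MyD88, had 11.0, 10.7 and 8.29 FPKM in WAT day 4 control and 3.07, 3.25 and 2.70 with EGCG (log2 change -1.51, SE 0.0702, adjusted p = 1.53e-08), and in BAT on day 4 it was higher instead (0.35, adjusted p = 0.00147). In BAT on day 8 it was also called higher (0.20, limma, adjusted p = 0.0201), but replicate 3 gave -0.07, and the median change over all genes there was 0.17. Irak3, an inhibitor of the pathway, was higher in WAT on day 4 (0.59, adjusted p = 0.000273) and lower in BAT on day 8 (-0.46, adjusted p = 0.000952).

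The kinase gene Map3k7 was higher in all 4 comparisons, from 0.15 in BAT day 4 (limma, adjusted p = 0.0471) to 0.52 in BAT day 8 (adjusted p = 6.28e-06). Tollip, Ikbkb and Ikbkg, named after their values were seen, were also called higher in all 4. Nfkb1 was higher in BAT on day 4 (0.34, adjusted p = 0.000307) and in WAT on day 4 (0.27, adjusted p = 0.00143) and day 8 (0.16, adjusted p = 0.0213). Nfkb2 was higher in BAT on day 8 (0.71, adjusted p = 8.4e-07) and in WAT on day 4 (0.19, adjusted p = 0.0275) and day 8 (0.16, adjusted p = 0.0435). The WAT day 8 values of Nfkb1 and Nfkb2 lie under the median change of 0.17 over all genes there. So does that of Ikbkg in BAT on day 8 (0.16 against 0.17), and the counts of this list moved with the scaling. Under median-ratio scaling only 3 genes of this list were called higher in WAT on day 8, so some of the WAT day 8 calls named here were lost. Myd88, the adaptor itself, was lower in WAT on day 8 (-0.33, adjusted p = 0.00109) and in BAT on day 4 (-0.20, adjusted p = 0.0263) and day 8 (-0.25, adjusted p = 0.0051). Tab1 was lower in BAT on day 4 (-0.45, adjusted p = 0.00224) and day 8 (-0.29, adjusted p = 0.0163). Map3k8 was higher in BAT on day 4 (0.40, adjusted p = 0.0149) and lower on day 8 (-0.30, adjusted p = 0.0375).

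Of 16 genes of cytokine processing, 10 passed the filter. With EGCG, WAT had 4 higher and 0 lower on day 4 and 3 and 1 on day 8, and BAT had 4 and 2 on day 4 and 3 and 2 on day 8, where 53.7%, 63.6%, 48.5% and 72.6% of all genes were called. The 4 calls in WAT on day 4 became 1 under median-ratio scaling, 0 with both tables fitted together, and 1 to 7 with a library left out. With WAT day 8 EGCG replicate 3 left out or rescaled, the count with both tables stayed within 1.5 times the main one. Capn2, a calpain subunit that can cut cytokine precursors, rose by 0.98 on day 8 in WAT (limma, adjusted p = 9.95e-09) and in BAT by 0.85 on day 4 (adjusted p = 6.06e-08) and 1.12 on day 8 (adjusted p = 1.1e-09). Casp8 rose in the same 3 comparisons (0.36, adjusted p = 0.00601, 0.42, adjusted p = 0.00363, and 0.83, adjusted p = 8.93e-06). Prtn3, which encodes proteinase 3, known from neutrophils and able to process IL-33, had 11.0, 11.2 and 13.1 FPKM in BAT day 8 control and 0.375, 0.350 and 0.283 with EGCG (-3.15, SE 0.129, adjusted p = 1.07e-09). It was also lower in WAT on day 8 (-1.38, adjusted p = 2.31e-06) and higher in WAT on day 4 (0.48, adjusted p = 0.00795). The neutrophil marker list in the BAT day 8 libraries summed to 0.0963 to 0.997 and 0.0573 to 0.421 FPKM. Casp4 was higher on day 4 in WAT (0.40, adjusted p = 0.00879) and BAT (0.33, adjusted p = 0.0255). Capn1 was higher in WAT day 4 (0.16, adjusted p = 0.0487) and lower in BAT day 4 (-0.31, adjusted p = 0.00179). Gsdmd, the pore gene through which IL-1β leaves cells, was lower in BAT day 8 (-0.37, adjusted p = 0.0308).

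Of 22 genes known to respond to NF-kB, 20 passed the filter. With EGCG, WAT had 8 higher and 3 lower on day 4 and 8 and 6 on day 8, and BAT had 9 and 3 on day 4 and 9 and 5 on day 8, where 53.7%, 63.6%, 48.5% and 72.6% of all genes were called. The medians were 0.38, 0.04, 0.45 and 0.36 on the log2 scale. Csf3, which encodes G-CSF, was higher in WAT on day 4, at 0.510, 0.809 and 0.604 FPKM in control cells and 12.7, 7.88 and 15.2 with EGCG (2.74, SE 0.208, limma, adjusted p = 7.99e-07), and was not called in the other 3 comparisons. Il6 was called higher in all 4, from 0.55 in WAT day 4 (adjusted p = 0.0379) to 2.70 in BAT day 8 (adjusted p = 1.71e-07), and is named after its values were seen. Ptgs2, the inducible cyclooxygenase gene, went from 0.716, 1.35 and 1.23 to 29.5, 32.0 and 24.1 FPKM in BAT on day 8 (3.98, SE 0.258, adjusted p = 4.86e-08), and was also higher in BAT on day 4 (1.59, adjusted p = 0.000319) and in WAT on day 8 (0.70, adjusted p = 0.0328).

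Lcn2, lipocalin 2, fell in BAT on day 8 from 122, 127 and 142 to 3.65, 2.70 and 3.92 FPKM (-4.92, SE 0.223, limma, adjusted p = 2.44e-09), and it also fell in WAT at the same time (-2.16, adjusted p = 5.09e-06) and in BAT earlier, on day 4 (-1.84, adjusted p = 3.36e-05), but was not called in WAT on day 4 (0.04, adjusted p = 0.907). Saa3, serum amyloid A3, fell on day 4 in WAT (-0.55, adjusted p = 0.0233) and BAT (-1.45, adjusted p = 4.26e-05) and on day 8 in WAT (-4.07, adjusted p = 6.47e-09) and BAT (-1.55, adjusted p = 8.99e-06). Both genes are also known as adipocyte products. Sod2 rose in WAT on day 4 (0.40, adjusted p = 0.000114) and fell in the other 3 comparisons, most in BAT on day 8 (-1.80, adjusted p = 1.42e-10). Vcam1 fell in WAT on day 4 (-0.84, adjusted p = 0.00157) and rose in BAT on day 8 (0.73, adjusted p = 0.00224). Of the genes that rose, Mmp3 did so in WAT on day 4 (1.51, adjusted p = 8.93e-05). The chemokine gene Ccl7 rose on day 8 in WAT (1.22, adjusted p = 0.00168) and BAT (3.40, adjusted p = 2.49e-07) and on day 4 in BAT (1.79, adjusted p = 0.000162). The adhesion gene Icam1 rose in all 4 comparisons, from 1.44 in WAT day 4 (adjusted p = 1.18e-06) to 1.94 in BAT day 8 (adjusted p = 2.42e-08).

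**Figure D4:**
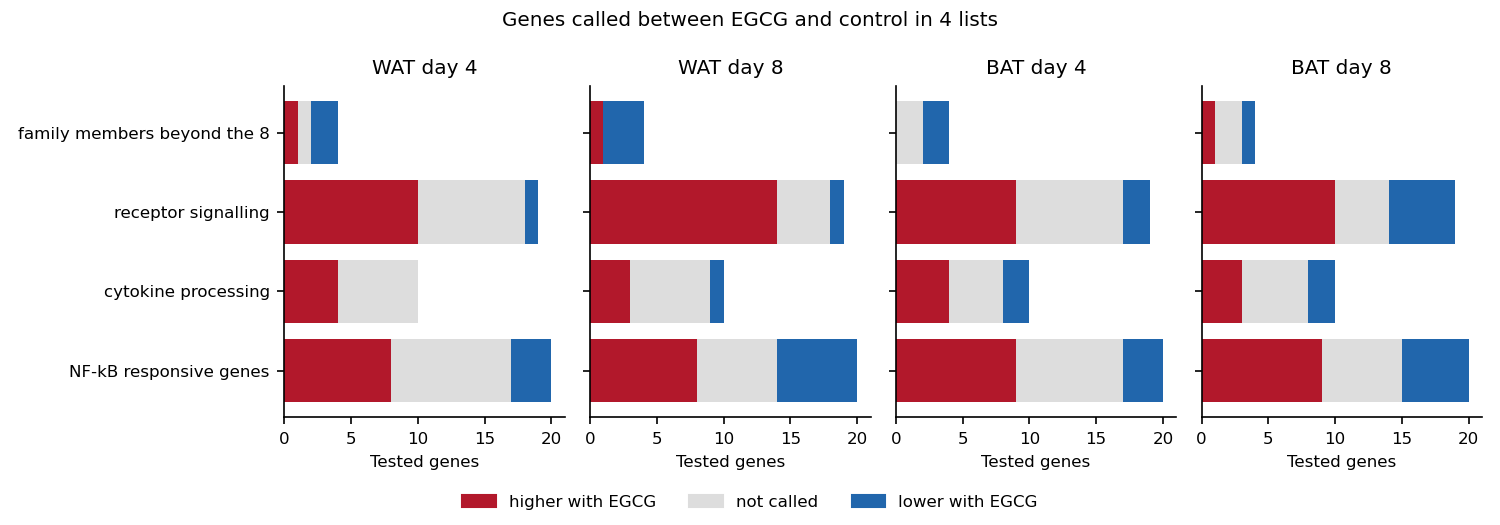
Number of tested genes called higher with EGCG, not called, or called lower in each of the 4 lists, by depot and day. The bars end at 4, 19, 10 and 20 genes, and 14 of the 19 signalling genes were called higher in WAT on day 8 on the values as deposited, against 3 under median-ratio scaling.

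The pattern of Il1rl1 over the 8 group means of log2(FPKM + 1) was most like that of Tm9sf2 (Pearson r = 0.986), Eaf1 (0.982), Adprh (0.981), Zfp295 (0.978) and Txnrd1 (0.975) among 10200 genes. Txnrd1 encodes a thioredoxin reductase, and its group means ran from 21.2 to 93.6 FPKM. For Il1rn the most similar were Fhod1 (0.979), Gldc (0.970), 2810006K23Rik (0.968), Urgcp (0.961) and 1700052N19Rik (0.958). Gldc, of the glycine cleavage system, ranged from 1.15 to 19.4 FPKM. These 8 points share depots, days and treatments, and the coefficients are a description with no test.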

How the data were processed

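RNA sequencing of 24 libraries was analysed from gene tables. The authors deposited FPKM values in 2 tables (replicates 1 and 2, and replicate 3), scaled separately. The submitters' processing notes name FastQC 0.11.9, HISAT2 2.2.0, HTSeq 0.11 and the build mm9, and strand use is not given in the sources used here. Symbols and coordinates are from GENCODE vM1 (mm9, counted from 1). Since FPKM were found to be whole multiples of 1 read (tolerance 0.01) in at least 99.83% of values, reads were recovered, and 3 reads was taken as the floor.

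Genes with an FPKM of at least 1 in 2 of the 16 libraries of replicates 1 and 2 were tested (14095 of 37310). A linear model of log2(FPKM + 1) on the 8 groups was estimated in limma 3.58.1 (R 4.3.3, eBayes with a trend, two-sided), with Benjamini-Hochberg adjustment within each of 16 contrasts. Changes on this scale understate those of genes with low levels. The procedure was tested on simulated reads. The members and lists were chosen with earlier results of these data known. Of the pathway lists, the 2 highest and 2 lowest called genes with a mean of at least 5 FPKM were named in each EGCG comparison, and family members freely. Some genes that this rule names are not reported here. Alternatives were the pseudocount, filter, scaling, voom on the recovered reads, trend, replicate block, both tables together and leaving out each library. The study's methods state no test for these files. Promoter windows are from RefSeq (GRCm38.p6), found for all 8 members, and no coordinates were converted between builds.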

Additional observations from a re-analysis of the deposited data

Results flagged for a closer look

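The effect of EGCG differed between depots or days for 4 members by a test of the difference itself (limma on log2(FPKM + 1), adjusted over 14095 genes, 2 libraries per group). For Il1rl1 it was smaller in BAT than in WAT on day 4 (-0.99, SE 0.270, adjusted p = 0.0186). For Il33 it was lower in BAT than in WAT on day 4 (-1.63, SE 0.362, adjusted p = 0.00656) and lower on day 8 than on day 4 in WAT (-1.28, SE 0.362, adjusted p = 0.0124). For Il1r1 it was lower on day 8 than on day 4 in WAT (-0.58, SE 0.148, adjusted p = 0.00671) and in BAT (-0.45, SE 0.148, adjusted p = 0.0233). For Il1rap it was higher in BAT than in WAT on day 4 (0.54, adjusted p = 0.00225) and on day 8 (0.77, adjusted p = 0.000118), and higher on day 8 than on day 4 in WAT (0.38, adjusted p = 0.0084) and in BAT (0.60, adjusted p = 0.000327). Replicate 3 gave the same sign in all 9 cases after WAT day 8 EGCG replicate 3 was rescaled. As deposited, that library has 6.51 FPKM of Il1rap against 18.7 in its control. The sign of the Il1rap day difference in WAT in replicate 3 thus rests on the rescaling. The calls of Il1rl1 and of Il1r1 in BAT were lost with no filter (limma, adjusted p = 0.0512 and 0.0579) and without some single libraries.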

How the results depend on the processing

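Under other settings the number of members called stayed within 1.5 times the main count in 161 cases and moved beyond it in 15, and with a library left out it stayed in 72 and moved in 8. Of the changes of single members, 973 kept their call or lack of one under other settings or, where no test was made, stayed within their SE. Another 28 lost the call and 25 gained one. Of the rest, 24 values with no test moved further, and 6 changes that were called or had no test turned sign. A turn of sign between uncalled values is counted in the 973. In BAT day 4 with EGCG the count of 2 became 1 with no filter and with both tables fitted together, and 4 with both tables when WAT day 8 EGCG replicate 3 was left out or, an alternative added after the data were seen, rescaled. Leaving out single libraries gave 1 to 3. Between days in WAT control cells, 5 became 3 with both tables or with the libraries of the contrast only, and 3 to 4 without single libraries. Between depots, both tables gave 1 for 3 (day 4 control), 2 for 4 (day 8 control, also with the libraries of the contrast only) and 2 for 4 (day 8 EGCG). For the depot difference of the EGCG effect on day 8, 1 became 2 with a pseudocount of 0.1 and 3 with both tables without or with rescaling of that library, and single libraries gave 1 to 4 (4 without WAT day 8 control replicate 1). For the day difference in BAT, 2 became 1 with no filter and 0 with both tables, and single libraries gave 1 to 3. Signs turned with both tables for Il1rap between depots in EGCG cells on day 8 (0.07, adjusted p = 0.803) and for its day difference in WAT (-0.07, adjusted p = 0.917). For Il1rl1, described with no test, the depot difference on day 8 was 1.47 with a pseudocount of 0.1, 3.14 with voom and 0.15 with both tables, and the day difference in WAT was -0.06 with both tables. Where both tables are fitted, WAT day 8 EGCG replicate 3 enters as deposited unless stated. With it left out or rescaled, none of these signs turned, and no member count moved beyond those given above. The calls then lost were those of Il18 between days in BAT controls (-0.43) and between depots in day 4 controls (0.49). The cause was not tested.

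Replicate numbers did not pair the samples (correlations of deviations from -0.08 to 0.08 over 28 pairs of groups). With a replicate block the numbers of members called were the same in all 16 comparisons, 4 in WAT day 4 and 2 in BAT day 4 with EGCG for example. Of the lists, cytokine processing went from 4 calls to 1 in WAT day 4 under median-ratio scaling, and with both tables receptor signalling went from 11 to 1, 15 to 2, 11 to 0 and 15 to 4. With WAT day 8 EGCG replicate 3 left out or rescaled, the signalling counts with both tables stayed within 1.5 times the main ones. The share of higher calls over all genes went under median-ratio scaling from 64.1% to 44.7% in WAT day 4 and from 64.0% to 51.8% in BAT day 8 with EGCG. It went from 41.5% to 53.3% between days in BAT controls, from 74.3% to 51.5% and 67.6% to 56.9% between depots on day 4 without and with EGCG, from 42.7% to 61.5% for the depot difference on day 4 and from 62.8% to 49.3% for the day difference in BAT. Leaving out single libraries gave 7 signalling calls for 11 on day 4 in either depot, 8 for 15 in WAT day 8, and 1 to 7 processing calls for 4 in WAT day 4. Depth limits Il1a and Il1b, and 2 libraries per group limit the rest.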
